A study of Mus musculus with 16 samples.

Results

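What 2 kinds of injected plasma exosomes share was examined in brain myeloid cells after experimental stroke. The 8 RNA sequencing libraries of mice given exosomes after middle cerebral artery occlusion (MCAO), 4 of MCAO+Ctrl-exos and 4 of MCAO+AS-exos, were set as 1 side against the 4 MCAO libraries, which makes 12 of the 16 libraries of the series. The 4 remaining libraries, Sham, served for the estimate of spread and are given as a reference level. Groups were taken from the sample titles, not from measured values. Cells stained for CD45 and CD11b were sorted from dissociated infarct cortex of C57BL/6 mice and are labelled as microglia. Per the labels, the exosome groups received 150 µg into a tail vein, repeated at 3 day intervals beginning on the day of surgery, and the donors were Apoe knockout mice on a western diet, used for 12 weeks to induce atherosclerosis, or on a normal diet. The labels do not spell out which code stands for which diet. Both exosome groups therefore share the occlusion, the injections and Apoe knockout plasma. No vehicle injection is named for the MCAO group, so exosomes and injection cannot be told apart. The time from occlusion to sorting, and whether each library is a separate mouse, are not stated. The p-values below measure the spread between these libraries, which may be partly technical.

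Exosomes are small vesicles that form inside endosomes and are released when these fuse with the cell surface. They carry proteins, lipids and RNA, and in the brain they can be taken up by microglia, the resident phagocytes, and by monocytes and macrophages that enter from the blood. After an occlusion these cells clear debris, produce cytokines and handle large amounts of lipid and iron in their lysosomes.

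The deposited values are taken as FPKM, fragments corrected for the length of the transcript and the size of the library, and levels below are FPKM unless stated. Depth is unknown, since no counts were used here. The 12 libraries held totals of 759311 to 983648 FPKM. MCAO+AS-exos replicate 4 stood apart from its group, with a mean correlation of 0.915 to its group against 0.956 to 0.962 for the other 3 and a higher mean correlation to MCAO, 0.922 against 0.879 to 0.896. MCAO+Ctrl-exos replicate 1 had the lowest mean correlation of its group, 0.914 against 0.925 to 0.929, and stood at 0.912 to MCAO, against 0.907 to 0.911 for the rest of its group. The MCAO libraries had 0.905 to 0.920 to each other. Counts of called genes are given with and without both libraries. Summed levels of 34 homeostatic microglia markers stood at 9394 to 13092 in MCAO, at 11590 to 14912 in MCAO+Ctrl-exos and 12655 to 18976 in MCAO+AS-exos, against 161000 to 193578 in Sham. Markers of blood-borne cells were found in all 12 libraries: 20 monocyte markers summed to 7454 to 13369, and 15 neutrophil markers to 1781 to 10229 in MCAO and 1908 to 8357 with exosomes. Of 10 neuron markers in the table none passed the filter, and their sum was 0.15 to 12.1. In these bulk libraries, fewer cells of a type and less RNA per cell cannot be told apart.

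Pooling both exosome types against MCAO called 6 of 10846 tested genes at an adjusted p below 0.05, which is 0.0553% of the genes. Tmem176b, Ccdc58 and Mrps16 rose, and Chka, Rpgrip1 and Gstp2 fell, so that each direction held 0.0277% of the genes. A further measure, used as a description with no test, was whether all 8 exosome libraries lay on 1 side of all 4 MCAO libraries. This was so for 233 genes or 2.15%, of which 59 lay higher (0.544%) and 174 lower (1.6%). At an unadjusted p below 0.05 stood 573 genes higher (5.28%) and 1516 lower (14%). Over all tested genes the log2 fold change had a median of -0.16, and single genes and lists are best read against that shift. It was -0.02 with quantile normalization and -0.29 with each library scaled to the same total.

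**Figure D1:**
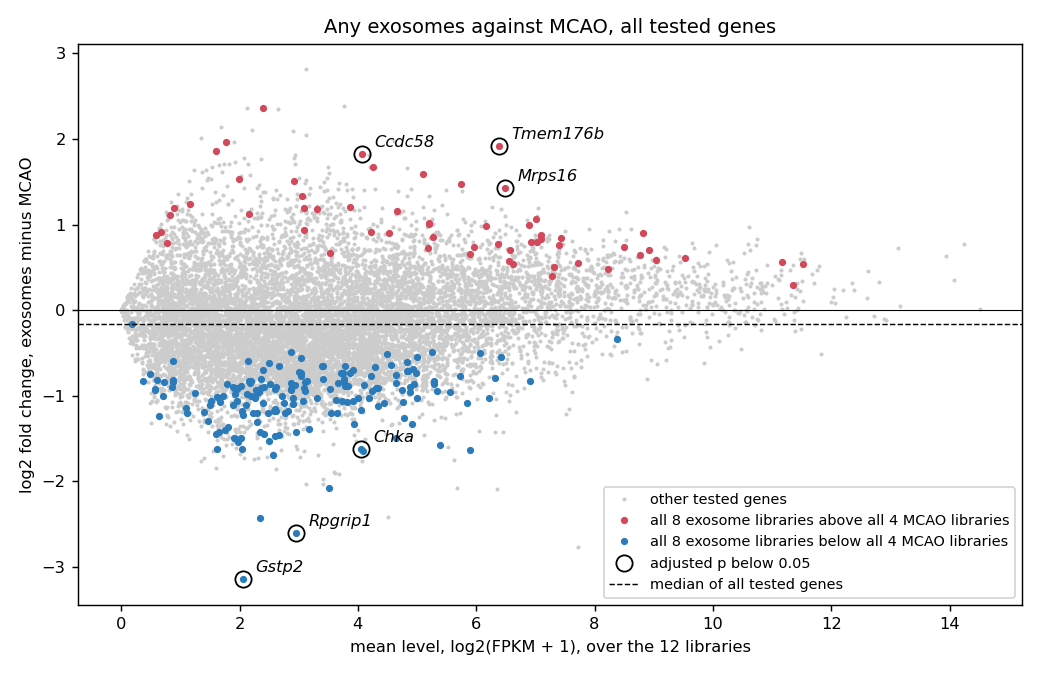
Log2 fold change of any exosomes against MCAO (vertical axis) by mean level in log2(FPKM + 1) over the 12 libraries (horizontal axis), 1 point per tested gene. Red and blue points are the 59 and 174 genes whose exosome and MCAO libraries did not overlap, circles mark the 6 called genes, and the dashed line is the median of all genes at -0.16.

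Among the genes that rose, Mrps16 and Ccdc58 belong to mitochondria. Mrps16 encodes a protein of the small subunit of the mitochondrial ribosome, which translates the RNAs of the mitochondrial genome. Its level was 39.5, 80.4, 38.7 and 34.4 FPKM in the 4 MCAO libraries, 96.0, 159, 117 and 184 in MCAO+Ctrl-exos, and 120, 95.9, 98.2 and 144 in MCAO+AS-exos. The highest MCAO library lay below the lowest exosome library, and Sham libraries, at 81.6 to 113, were also above every MCAO library. The log2 fold change was 1.42 ± 0.24 (SE), with an adjusted p of 0.0269. Ccdc58 encodes a small coiled-coil protein of mitochondria and was put on its list because an earlier analysis of these data had named it. It stood at 10.2, 10.3, 3.49 and 3.68 FPKM in MCAO, at 17.6, 29.3, 28.8 and 32.1 in MCAO+Ctrl-exos, and at 19.2, 21.3, 22.2 and 29.2 in MCAO+AS-exos. All 8 exosome libraries were above all MCAO libraries, and Sham was at 24.2 to 37.1. The log2 fold change of Ccdc58 was 1.82 ± 0.30, with an adjusted p of 0.0233.

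Tmem176b, a membrane protein of endosomal compartments in myeloid and dendritic cells, was the third gene that rose. MCAO libraries held 36.5, 52.0, 16.3 and 39.96 FPKM of it, MCAO+Ctrl-exos 144, 136, 154 and 77.9, and MCAO+AS-exos 151, 166, 178 and 73.1. The groups did not overlap, replicate 4 was the lowest of each exosome group, and Sham was far higher in 3 of 4 libraries, with a range of 173 to 638. This gave a log2 fold change of 1.92 ± 0.35, with an adjusted p of 0.0426. In the GENCODE M21 annotation Tmem176b overlaps Tmem176a on the opposite strand, and the sources used here do not say whether counting used strand, so its level is uncertain. Tmem176a itself had a log2 fold change of 0.24 ± 0.38, with an adjusted p of 0.771.

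Among the genes that fell, Chka was low with both exosome types. It encodes choline kinase alpha, which starts the synthesis of phosphatidylcholine, the main phospholipid of cell membranes, from choline. Its level was 40.6, 31.6, 32.3 and 32.3 FPKM in MCAO, at 21.2, 9.99, 9.27 and 16.7 in MCAO+Ctrl-exos, and 6.49, 9.17, 5.13 and 12.8 in MCAO+AS-exos. Every exosome library was below every MCAO library, and 6 of the 8 lay at or under 14.8, the highest of the Sham libraries, which spanned 11.8 to 14.8. The log2 fold change was -1.62 ± 0.28, with an adjusted p of 0.0269. Antisense transcripts are annotated within Chka, so part of its signal could come from the other strand.

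Gstp2 and Rpgrip1, the other genes that fell, were near 0 in 1 exosome type and above it in the other. Gstp2, a glutathione transferase of the pi class that couples glutathione to reactive compounds, stood at 10.3, 14.8, 26.6 and 18.8 FPKM in MCAO, at 0, 0, 0.18 and 0.27 in MCAO+Ctrl-exos, and at 3.15, 2.55, 0.81 and 5.48 in MCAO+AS-exos. The groups did not overlap, and Sham spanned 0 to 9.55. Gstp2 had a log2 fold change of -3.14 ± 0.48, with an adjusted p of 0.0138. Its near-identical copy Gstp1 was at a mean of 227 ± 57.8 (SD, n = 4) FPKM in MCAO, so the share of reads given to Gstp2 is uncertain. Rpgrip1, known as a protein of the photoreceptor cilium, stood at 19.8, 22.8, 41.0 and 20.1 FPKM in MCAO, at 0, 0.30, 0.64 and 0.20 in MCAO+Ctrl-exos, and at 12.8, 14.4, 9.28 and 17.7 in MCAO+AS-exos. The highest MCAO+AS-exos library lay just under the lowest MCAO library, and all 4 were within the Sham range of 7.03 to 18.8, whereas MCAO+Ctrl-exos libraries were close to 0. The pooled log2 fold change of Rpgrip1 was -2.60 ± 0.31, with an adjusted p of 8.71e-04, and it hides a difference between the exosome types given below. Rpgrip1 overlaps Supt16 on the opposite strand in GENCODE M21, so both levels are uncertain.

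**Figure D2:**
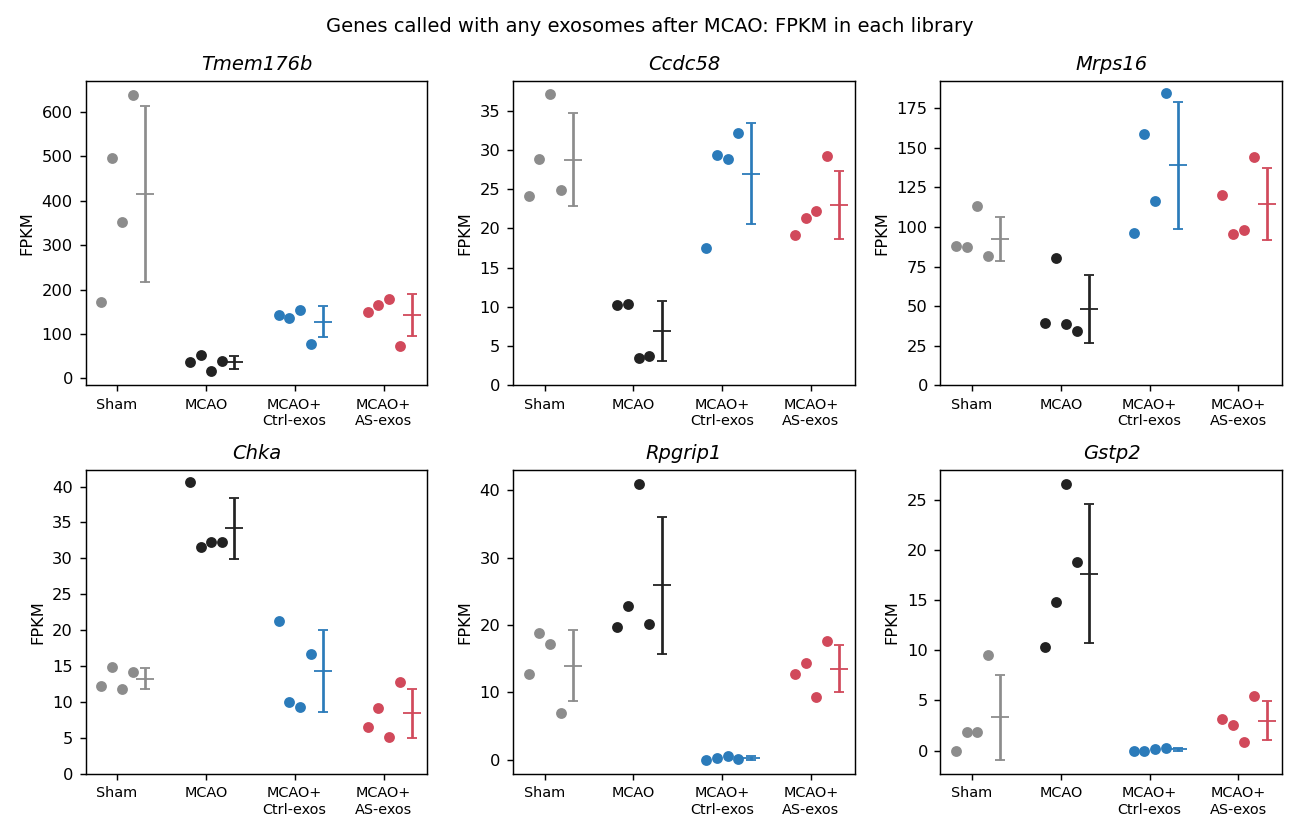
FPKM of the 6 called genes (vertical axes, linear) in the 4 libraries of each group (points) with the mean and SD beside them. In each panel the 8 exosome libraries lie on 1 side of the 4 MCAO libraries, and Gstp2 and Rpgrip1 lie at 0 to 0.64 in MCAO+Ctrl-exos and above that in MCAO+AS-exos.

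Upstream sequence is shown for 1 gene that rose and 1 that fell, Mrps16 and Chka, to give the letters beside the levels. The promoter table used, from RefSeq on GRCm38.p6, gives Mrps16 at chr14:20393635-20393834 on the minus strand and Chka at chr19:3851573-3851772 on the plus strand, each 200 bases ending just before the 5′-most start listed. Letters run 5′ to 3′ along the gene, and capitals mark a GC box (GGGCGG or its reverse complement CCGCCC) or a CCAAT box (CCAAT or ATTGG).
Mrps16: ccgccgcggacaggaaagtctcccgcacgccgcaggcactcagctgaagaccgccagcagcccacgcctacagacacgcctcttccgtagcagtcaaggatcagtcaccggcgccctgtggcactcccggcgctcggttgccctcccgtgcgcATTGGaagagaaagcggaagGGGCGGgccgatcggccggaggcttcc
Chka: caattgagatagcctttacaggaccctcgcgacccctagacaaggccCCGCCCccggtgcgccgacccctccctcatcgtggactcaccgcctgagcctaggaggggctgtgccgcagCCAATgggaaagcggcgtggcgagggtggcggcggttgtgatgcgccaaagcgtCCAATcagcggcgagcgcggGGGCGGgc
Mrps16 held 1 box of each kind and Chka 2 of each. Such letters are common: in windows of 250 bases, a GC box was found in 58.9% of 8755 promoters of tested genes, in 45.3% of the 53 matched promoters of genes that lay higher with exosomes, and in 61.2% of the 139 of genes that lay lower. For the CCAAT box the shares were 36.9%, 34.0% and 33.8%. These matches describe the windows and say nothing of a factor.

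The 2 exosome types were then compared with each other, a contrast that uses no MCAO library. At an adjusted p below 0.05, 31 genes or 0.286% differed between MCAO+AS-exos and MCAO+Ctrl-exos. Of the 6 called genes 1 was among these: Rpgrip1 was higher in MCAO+AS-exos by 3.49 ± 0.36 on the log2 scale, with an adjusted p of 8.14e-05. The difference was 0.12 ± 0.40 for Tmem176b, -0.20 ± 0.34 for Ccdc58, -0.25 ± 0.28 for Mrps16, -0.70 ± 0.32 for Chka and 1.71 ± 0.55 for Gstp2, with adjusted p-values of 0.905, 0.789, 0.655, 0.238 and 0.103. With errors of this size, equal responses are not shown. Each type was also set against the same 4 MCAO libraries. MCAO+Ctrl-exos against MCAO called 8 genes (0.0738%) and MCAO+AS-exos against MCAO called 666 (6.14%). Ccdc58, Mrps16 and Gstp2 were called with each type. The log2 fold changes with MCAO+Ctrl-exos and MCAO+AS-exos were 1.93 and 1.72 for Ccdc58, 1.55 and 1.297 for Mrps16, and -4.00 and -2.29 for Gstp2. Tmem176b (1.86 and 1.98) and Chka (-1.27 and -1.97) were called with MCAO+AS-exos and had adjusted p-values of 0.109 and 0.167 with MCAO+Ctrl-exos. For Rpgrip1 the values were -4.35 and -0.86, and the adjusted p with MCAO+AS-exos was 0.141.

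Of the lists of processes used here, 2 of 30 lysosome genes (Hexa and Atp6v0c) and 1 of 26 vesicle genes (Cd63) lay higher with exosomes without overlap, beside 0.544% of all tested genes, and limma called 0 of either list. So did 2 of 58 mitochondrial ribosome and import genes, 2 of 36 proteasome genes and 2 of 23 antigen presentation genes. Psmb10 is on both of the last 2 lists. Sterol synthesis (1 of 19) and disease-associated phagocytes (1 of 31) also held such a gene. The genes in this and the next 2 paragraphs that are no called gene and no list member with the smallest p were picked after their values were seen. Cd63, a tetraspanin of late endosomes and exosomes, stood at 2317, 1955, 2368 and 2497 FPKM in MCAO, at 2793, 2972, 3691 and 4876 in MCAO+Ctrl-exos, and at 3759, 3499, 2863 and 2622 in MCAO+AS-exos. The lowest exosome library exceeded the highest MCAO library by a small margin, and the log2 fold change of 0.55 ± 0.19 had an adjusted p of 0.142. Hexa, the alpha subunit of the lysosomal enzyme that degrades gangliosides, was at 292, 281, 249 and 382 FPKM in MCAO, at 465, 685, 706 and 699 in MCAO+Ctrl-exos, and 529, 501, 534 and 401 in MCAO+AS-exos. No libraries overlapped, and the log2 fold change of Hexa was 0.90 ± 0.20 with an adjusted p of 0.0807. Acp5, a phosphatase of lysosomes, was at 78.8 to 104 in MCAO and 121 to 213 with exosomes, with a log2 fold change of 0.83 ± 0.20 and an adjusted p of 0.0923. Atp6v0c, a subunit of the proton pump that acidifies lysosomes, had a log2 fold change of 0.29 ± 0.18, at the low end of the genes that lay higher without overlap, and was not called.

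Further single genes lay higher without overlap. Tnfrsf1a, the type 1 receptor of tumor necrosis factor, was at 49.0, 53.2, 37.9 and 39.5 FPKM in MCAO, at 100.3, 94.8, 94.6 and 82.6 in MCAO+Ctrl-exos, and 74.5, 94.3, 104 and 73.0 in MCAO+AS-exos. The exosome libraries were all above the MCAO libraries, and the log2 fold change of 0.99 ± 0.21 had an adjusted p of 0.0807. Psmb10, a catalytic subunit of the immunoproteasome that produces peptides for presentation, was at 62.5 to 86.6 in MCAO and 95.0 to 282 with exosomes, with a log2 fold change of 0.996 ± 0.24 and an adjusted p of 0.0863. Tspo, the mitochondrial outer membrane protein used to image activated microglia, was at 504 to 626 in MCAO and 719 to 1065 with exosomes, with a log2 fold change of 0.61 ± 0.20 and an adjusted p of 0.13. Mvd, an enzyme of the mevalonate path to cholesterol, was at 0.31, 2.17, 0.68 and 0.39 FPKM in MCAO, at 3.34, 12.3, 24.7 and 10.6 in MCAO+Ctrl-exos, and 4.10, 8.11, 7.19 and 5.96 in MCAO+AS-exos. Mvd had the largest log2 fold change of the 59 genes, 2.36 ± 0.53, with an adjusted p of 0.0807.

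Single genes that lay lower without overlap had different functions. Of the lists of processes, iron handling had 2 of 30 members among them, beside 1.6% of all tested genes. Splicing (Srrm2, of 27), immediate early genes (Atf3, of 23) and glutathione transferases (Gstp2, of 15) had 1 each. The same held for homeostatic microglia (1 of 34), interferon response (1 of 31), pro-inflammatory mediators (1 of 35) and antigen presentation (1 of 23). Srrm2, a scaffold protein of nuclear speckles, was at 131, 119, 119 and 134 FPKM in MCAO, at 112, 56.7, 39.7 and 64.2 in MCAO+Ctrl-exos, and 19.7, 14.9, 15.1 and 82.2 in MCAO+AS-exos. All exosome libraries were below MCAO, those of MCAO+AS-exos replicates 1 to 3 by the widest margin. Srrm2 had a log2 fold change of -1.63 ± 0.35, with an adjusted p of 0.0807. Alyref, an adaptor for export of messenger RNA, was at 39.9 to 58.3 in MCAO and 4.78 to 33.0 with exosomes, with a log2 fold change of -1.49 ± 0.35 and an adjusted p of 0.0822. Isg15, a ubiquitin-like protein induced by interferon, was at 42.3, 28.6, 31.0 and 18.5 in MCAO, at 17.9, 6.21, 6.77 and 0.95 in MCAO+Ctrl-exos, and 5.03, 4.91, 5.38 and 12.2 in MCAO+AS-exos. The groups were close without overlap, and its log2 fold change of -2.08 ± 0.52 had an adjusted p of 0.0938. Isg15 does not stand for its list: 15 of 31 interferon response genes had a log2 fold change above 0. That list had a median of -0.02, with 1 gene higher and 2 lower at an unadjusted p below 0.05. Slc25a28, a carrier that brings iron into mitochondria, was at 67.8 to 111 in MCAO and 12.5 to 60.2 with exosomes, with a log2 fold change of -1.58 ± 0.41 and an adjusted p of 0.108. Of 30 iron handling genes, 18 had a log2 fold change above 0, and the list median was 0.07. Mef2a, a transcription factor active in resident microglia, was at 69.8 to 81.2 in MCAO and 28.4 to 63.4 with exosomes, with a log2 fold change of -0.77 ± 0.23 and an adjusted p of 0.127.

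The 59 genes that lay higher had a median log2 fold change of 0.90, with medians of 0.96 for MCAO+Ctrl-exos and 0.83 for MCAO+AS-exos. The 174 that lay lower had a median of -0.94, with -0.82 for MCAO+Ctrl-exos and -1.10 for MCAO+AS-exos. These sizes follow from the rule that chose the genes. How the genes split by direction depended on the scale: 59 higher and 174 lower as deposited, 87 and 108 with quantile normalization, and 30 and 284 with equal totals. With quantile normalization 45 of the 59 and 79 of the 174 remained without overlap in the same direction, and with equal totals 30 and 161 did.

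Lists of processes were described by their tested members beside the same counts over all genes, and no list was tested as a set. The lists were chosen with earlier results of these data known. For mitochondrial ribosome and import, 2 of 58 tested members were called higher, Mrps16 and Ccdc58, beside 0.0277% of all tested genes. Ccdc58 was listed because an earlier analysis of these data had named it, so its call says nothing of the list. At an unadjusted p below 0.05, 12 of the 58 were higher and 0 lower, beside the 5.28% and 14% of all genes given above. The list had a median log2 fold change of 0.29, with 0.39 for MCAO+Ctrl-exos and 0.25 for MCAO+AS-exos. Of 37 subunits of respiratory complex I, the entry point of electrons into the respiratory chain, 0 were called by limma, 8 were higher and 0 lower at the unadjusted threshold, and the median was 0.27. The types differed in size, with medians of 0.56 and 0.10. Ndufs8, the complex I member with the smallest p, was at 118 to 234 FPKM in MCAO and 215 to 460 with exosomes, with a log2 fold change of 0.82 ± 0.23 and an adjusted p of 0.114. For complexes II to V, 0 of 41 were called, and 7 were higher and 0 lower at the unadjusted threshold. The median was 0.20, beside -0.16 for all tested genes. With quantile normalization the list stood at 0.03 beside -0.02, and with equal totals at 0.03 beside -0.29. With the trend in length removed it stood at 0.06 beside -0.15. Its leading member Uqcr11, a small subunit of complex III, was at 505 to 621 in MCAO, at 1011 to 1823 in MCAO+Ctrl-exos and 511 to 800 in MCAO+AS-exos. The exosome types differed in Uqcr11 by -1.15 ± 0.20, with an adjusted p of 0.0236, so its pooled log2 fold change of 0.78 ± 0.17 describes mainly the MCAO+Ctrl-exos libraries.

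The proteasome, which degrades ubiquitin-tagged proteins, had 0 of 36 members called, 13 higher and 0 lower at the unadjusted threshold, and a median of 0.35, with 0.20 for MCAO+Ctrl-exos and 0.36 for MCAO+AS-exos. Its summed level was 7691 to 8316 FPKM in MCAO and 8150 to 11831 with exosomes, with overlap in the lowest exosome library. The cytosolic ribosome had 0 of 80 called, 15 higher and 0 lower at the unadjusted threshold. Its median of 0.19 combined 0.41 for MCAO+Ctrl-exos with -0.14 for MCAO+AS-exos. With quantile normalization it was -0.03, beside -0.02 for all tested genes. The medians of mitochondrial ribosome and import (0.13 to 0.28), complex I (0.10 to 0.15) and the proteasome (0.15 to 0.18) stayed above 0 with quantile normalization, with equal totals and with the trends in length, or in length and GC content, removed. Members of these 3 lists and of the cytosolic ribosome are short transcripts in the main, with median lengths of 689 to 1199 bases beside 2070 for all tested genes, a property that bears on these libraries as shown further on.

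Splicing and nuclear RNA genes lay mostly on the lower side. Of 27 tested members 0 were called, 16 were lower and 0 higher at the unadjusted threshold, and 2 had a log2 fold change above 0. The median was -0.57, with -0.35 for MCAO+Ctrl-exos and -0.86 for MCAO+AS-exos, and it was -0.73 to -0.47 under the scalings and trend removals named above. The summed level of the list was 2898 to 3372 FPKM in MCAO and 2044 to 2649 with exosomes, with no overlap. Immediate early genes, which are induced within minutes of a stimulus and also by tissue dissociation, had 0 of 23 called, 1 higher and 11 lower at the unadjusted threshold, and a median of -0.57, with -0.29 and -0.73 for the 2 types. Jun, a subunit of the AP-1 transcription factor, was at 62.1, 89.5, 114 and 128 FPKM in MCAO, at 78.2, 50.6, 32.8 and 40.2 in MCAO+Ctrl-exos, and 16.01, 12.3, 11.8 and 61.6 in MCAO+AS-exos. The groups overlapped in MCAO+Ctrl-exos replicate 1, and the log2 fold change of Jun was -1.59 ± 0.35 with an adjusted p of 0.0807. In Sham, Jun was at 335 to 499. The part of dissociation in these levels was not tested. Proliferation genes had 0 of 28 called, 1 higher and 4 lower at the unadjusted threshold, and a median of -0.50. By type the medians were alike, at -0.44 for MCAO+Ctrl-exos and -0.43 for MCAO+AS-exos. The 4 of 28 that were lower are close to the share over all tested genes, 14%. Tyms, which makes thymidylate for DNA synthesis, had a log2 fold change of -1.38 ± 0.35 and an adjusted p of 0.102.

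**Figure D3:**
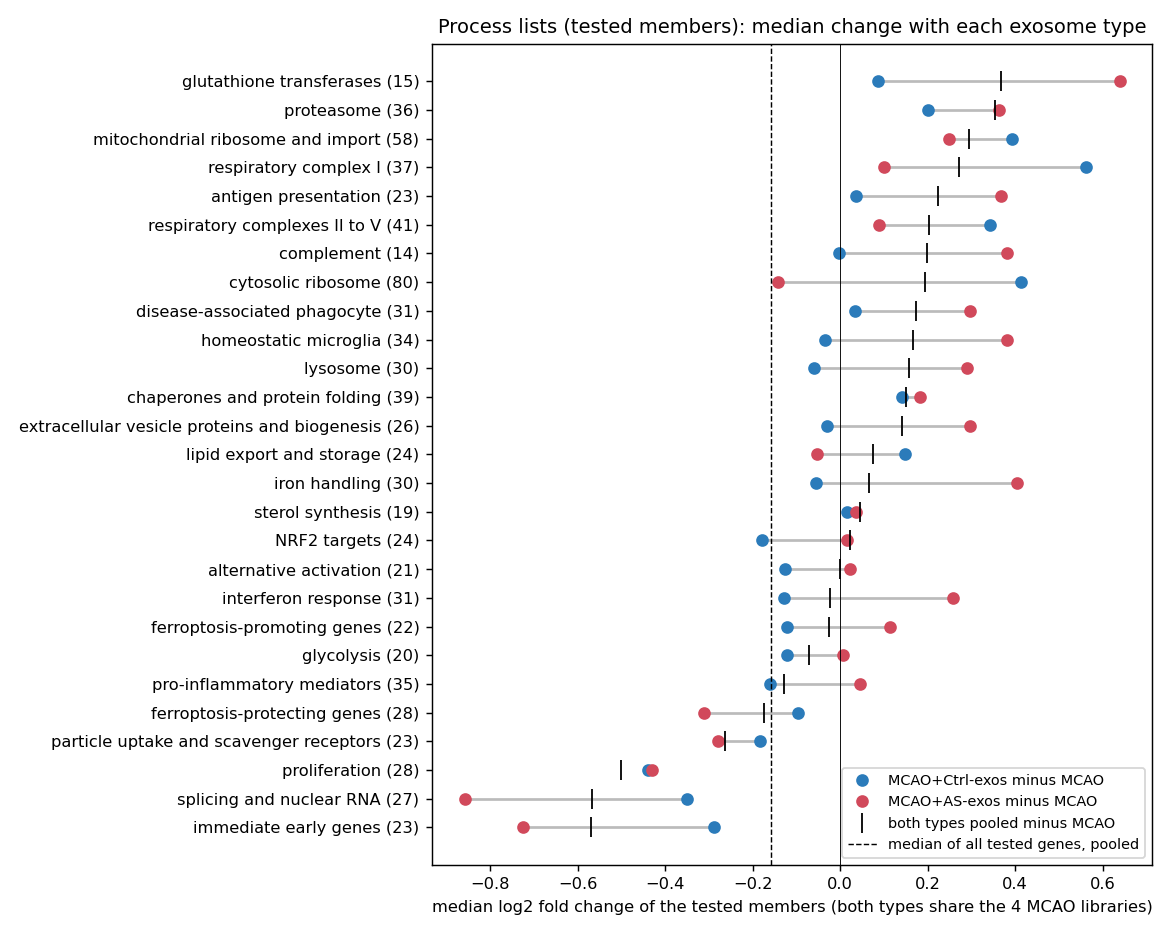
Median log2 fold change of the tested members of the 27 process lists (horizontal axis) for MCAO+Ctrl-exos (blue) and MCAO+AS-exos (red) against the same 4 MCAO libraries, with both pooled (black tick). The dashed line is the median of all tested genes at -0.16. The lists of splicing, immediate early genes, proliferation, and uptake and scavenger receptors lie below it with both types.

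Lists tied to the contact between phagocytes and vesicles held no called gene. Counts at the unadjusted threshold in this and the next 2 paragraphs stand beside 5.28% higher and 14% lower over all tested genes. Of 26 vesicle genes, 3 were higher and 2 lower, with a median of 0.14 beside -0.16 for all tested genes. With equal totals the median was -0.03 beside -0.29, and with the trend in length removed 0.03 beside -0.15. The vesicle median was -0.03 for MCAO+Ctrl-exos and 0.30 for MCAO+AS-exos. Tspan4, a tetraspanin, was at 27.4 to 82.3 FPKM in MCAO, at 61.0 to 109 in MCAO+Ctrl-exos and 77.6 to 201 in MCAO+AS-exos, with a log2 fold change of 1.18 ± 0.29 and an adjusted p of 0.0948. Of 23 uptake and scavenger receptors, 1 was higher and 3 lower, close to the shares over all tested genes. Their median was -0.26, with -0.18 for MCAO+Ctrl-exos and -0.28 for MCAO+AS-exos. Olr1, a receptor of oxidized low density lipoprotein, was at 1.71 to 10.2 in MCAO, at 0.14 to 4.16 in MCAO+Ctrl-exos and 0.78 to 1.95 in MCAO+AS-exos, and was listed at 0 in all Sham libraries. Its log2 fold change of -1.35 ± 0.40 had an adjusted p of 0.127. Of 30 lysosome genes, 3 were higher and 0 lower, with a median of 0.16 beside -0.16 for all tested genes. It was -0.03 beside -0.02 with quantile normalization, and -0.01 beside -0.29 with equal totals. The lysosome median was -0.06 for MCAO+Ctrl-exos and 0.29 for MCAO+AS-exos, so the pooled value is not shared by both types. Lipid export and storage had 4 higher and 0 lower of 24, and sterol synthesis 2 higher and 0 lower of 19.

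Ferroptosis, an iron-dependent death by lipid peroxidation that the series title names, was followed in lists with no called gene. Of 22 promoting genes, 1 was higher and 1 lower at the unadjusted threshold, with a median of -0.03, and of 28 protecting genes 3 were higher and 4 lower, with a median of -0.17. Ftl1, the light chain of the iron store ferritin, was at 13443, 15068, 12839 and 12919 FPKM in MCAO, at 17433, 22595, 23861 and 23821 in MCAO+Ctrl-exos, and 33850, 31957, 25979 and 13324 in MCAO+AS-exos. The overlap came from MCAO+AS-exos replicate 4. The log2 fold change of Ftl1 was 0.78 ± 0.22, with an adjusted p of 0.115. Gclc, the enzyme that limits glutathione synthesis, was at 21.01 to 38.5 in MCAO and 7.22 to 27.8 with exosomes, with a log2 fold change of -1.05 ± 0.33 and an adjusted p of 0.127. Gstp2 was the called gene among 15 glutathione transferases, of which 3 were higher and 1 lower at the unadjusted threshold.

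Markers of microglial and inflammatory states held genes with higher and with lower values. Of 34 homeostatic microglia genes 0 were called, 6 were higher and 5 lower at the unadjusted threshold, and the median was 0.17, with -0.03 for MCAO+Ctrl-exos and 0.38 for MCAO+AS-exos. C1qa, a chain of the first complement component, was at 1699, 757, 710 and 1096 FPKM in MCAO, at 2019, 1810, 1669 and 1624 in MCAO+Ctrl-exos, and 2598, 2501, 2115 and 1618 in MCAO+AS-exos. MCAO replicate 1 overlapped with the exosome libraries, and the log2 fold change of C1qa was 0.97 ± 0.27 with an adjusted p of 0.114. Of 31 genes of disease-associated phagocytes 9 were higher and 2 lower, with a median of 0.17, and with 0.03 and 0.30 for the 2 types. Of 35 pro-inflammatory mediators 0 were higher and 2 lower, with a median of -0.13. Tnfaip3, an inhibitor of NF-kB signalling, was at 35.1 to 55.9 in MCAO, at 12.4 to 40.4 in MCAO+Ctrl-exos and 19.0 to 37.0 in MCAO+AS-exos, with a log2 fold change of -0.81 ± 0.29 and an adjusted p of 0.151. No marker of another cell type was called. Of 14 neutrophil markers 2 were higher and 1 lower at the unadjusted threshold, with medians of -0.43 with MCAO+Ctrl-exos and 0.53 with MCAO+AS-exos. Of 20 monocyte markers 1 was higher and 4 lower, with medians of 0.09 and -0.09. All 6 tested endothelial and mural markers had a log2 fold change above 0, with a median of 0.44 and 2 higher at the unadjusted threshold. Of these 2, 1 was Ly6c1, which was also the 1 higher monocyte marker. Ly6c1 was at 0.24 to 3.05 FPKM in MCAO, at 0.35 to 3.96 in MCAO+Ctrl-exos and at 1.96 to 49.5 in MCAO+AS-exos. The endothelial and mural list of 11 summed to 163 to 242 FPKM in MCAO, to 231 to 290 in MCAO+Ctrl-exos and to 295 to 392 in MCAO+AS-exos, against 165 to 376 in Sham. Of 6 platelet markers 0 were higher and 2 lower, with a median of -0.63. Sums of the platelet list overlapped, at 1137 to 3566 in MCAO and 1978 to 4010 with exosomes. Both the platelet and the border macrophage list name Pf4, so such sums are not particular to platelets. Gp9, the platelet marker with the smallest p, was at 0 to 4.75 FPKM in MCAO and 0 to 0.61 with exosomes. Medians were 0.24 over 16 border macrophage markers (1 higher, 0 lower), -0.28 over 16 dendritic cell markers (1 and 2) and 0.44 over 5 erythroid markers (0 and 0), the last with 1.66 for MCAO+Ctrl-exos and -0.12 for MCAO+AS-exos. The border macrophage median was -0.16 for MCAO+Ctrl-exos and 0.52 for MCAO+AS-exos. The lists of T and NK cells, B cells, astrocytes and oligodendrocytes had 2 to 5 tested members each and medians of -0.30 to 0.21. The part of these cell types in the gene results was not tested.

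The number of called genes rested on a few libraries. Without MCAO+AS-exos replicate 4, 880 genes were called, 178 higher and 702 lower, and without MCAO+Ctrl-exos replicate 1, 103 were. Without both, 1305 were called: 278 higher (2.56%) and 1027 lower (9.47%), and all 6 genes above were among them. Weights for library quality in limma gave 1508. Other left-out libraries moved the count the other way, to 3 without MCAO replicate 1, 1 without MCAO replicate 3, 2 each without MCAO+Ctrl-exos replicate 2 or 3, and 3 without MCAO+AS-exos replicate 1. Rpgrip1 was called whichever library was left out, but not in a fit with the 8 exosome libraries as 1 group (adjusted p = 0.183). Gstp2 lost its call without MCAO replicate 3 (adjusted p = 0.0747), and Tmem176b, Ccdc58, Mrps16 and Chka each lost theirs without 2 or more different libraries in turn. The count of 233 genes without overlap became 1025 without both libraries, and 428 to 486 without any 1 of the MCAO libraries, 611 without MCAO+Ctrl-exos replicate 1 and 372 without MCAO+AS-exos replicate 4, since fewer libraries make a separation easier. MCAO+AS-exos replicate 4 and MCAO+Ctrl-exos replicate 1 have the highest mean correlation to MCAO of their groups, the latter by a very small margin. Both also have the lowest mean correlation to their own group. Leaving out such a pair favours more calls by construction, so its counts lend no weight to a gene or list.

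**Figure D4:**
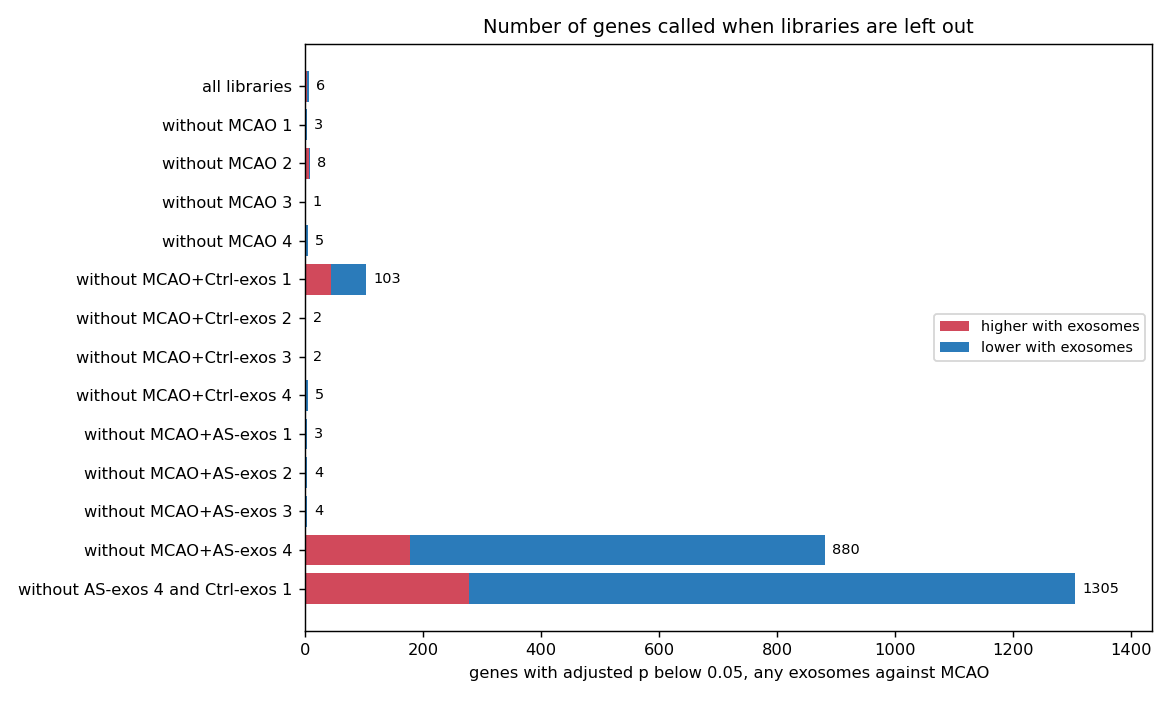
Number of genes with an adjusted p below 0.05 for any exosomes against MCAO (horizontal axis) with all libraries, with each of the 12 libraries left out, and with MCAO+AS-exos replicate 4 and MCAO+Ctrl-exos replicate 1 both left out. The count is 6 with all libraries, 880 without MCAO+AS-exos replicate 4 and 1305 without both.

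Transcript length moved with the exosome groups. The 10622 tested genes with a length were put in 5 bins of equal number. The pooled median log2 fold change was 0.07 in the shortest bin (189 to 1016 bases), then 0.02, -0.13 and -0.28, and -0.41 in the longest (3644 to 123179 bases). In the longest bin, MCAO+AS-exos replicates 1 to 3 lay at -0.77 to -0.69 relative to the mean of MCAO and replicate 4 at -0.15, and MCAO+Ctrl-exos replicates 2 to 4 at -0.37 to -0.25 and replicate 1 at 0.02. The MCAO libraries themselves spanned -0.06 to 0.07. Genes that lay higher without overlap made up 1.04% of the shortest and 0.141% of the longest bin, and genes that lay lower 0.847% and 2.82%. Their median lengths were 1265 and 2869 bases. With the trend in length removed from each library, 5 genes were called, all among the 6, and 39 of the 59 and 123 of the 174 genes remained without overlap. Whether cells, RNA quality or library preparation set this trend was not tested.

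**Figure D5:**
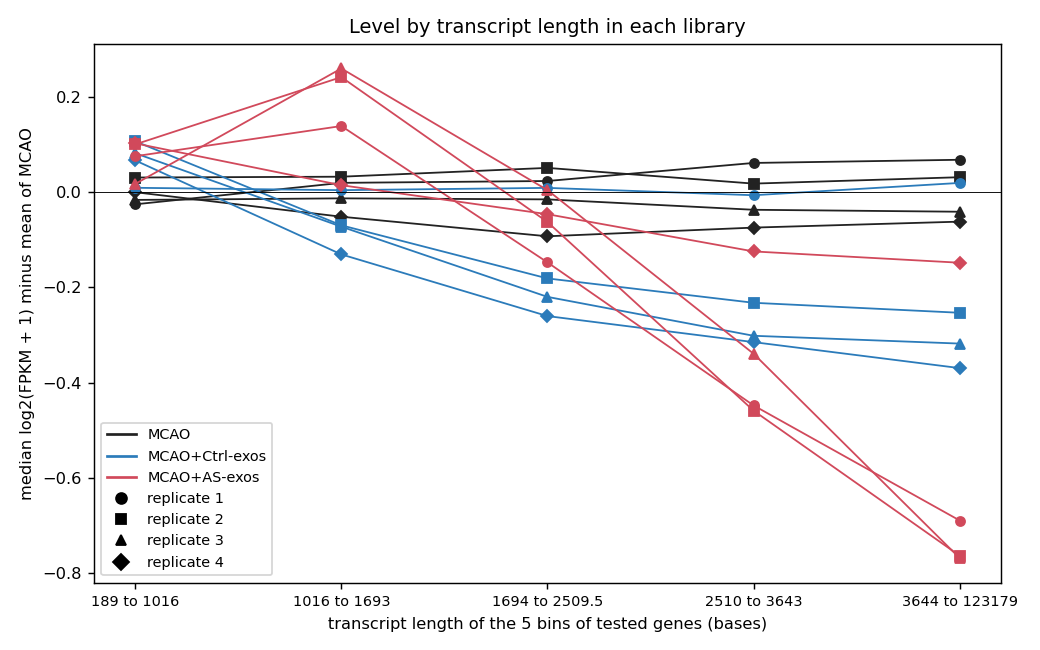
Median level of tested genes relative to the mean of the MCAO libraries (vertical axis, log2 scale) in 5 bins of transcript length (horizontal axis), 1 line per library. In the longest bin MCAO+AS-exos replicates 1 to 3 reach -0.77 to -0.69, whereas MCAO+AS-exos replicate 4 and MCAO+Ctrl-exos replicate 1 lie near the MCAO libraries.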

How the data were processed

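RNA of sorted cells was sequenced in 16 libraries in 4 groups of 4. The deposited values were taken as FPKM, a unit inferred because RSEM is named and the totals differ among libraries. TPM with genes left out would look alike. Per the submitters' processing notes, HISAT2, Bowtie2 and RSEM 1.3.1 were used on GRCm39.p6. Per the labels, libraries were made from amplified cDNA with a transposon method and circularized.

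Here log2(FPKM + 1) of 10846 of 13982 genes, kept where 4 or more libraries reached 1 FPKM, was fitted with limma 3.58.1 in R 4.3.3. The model held 4 group means over 16 libraries (eBayes with trend and robust). The pooled contrast was the mean of both exosome groups minus MCAO. Two-sided p-values were adjusted by Benjamini-Hochberg over all tested genes, with a threshold of 0.05. Errors of fold changes are standard errors. Named genes were the called genes with average levels in the upper 50% and no overlap (the 12 with the largest change per direction, or the 6 with the smallest p where fewer than 3 passed), called members of each of 39 lists or else the member with the smallest p, and called genes by their difference between types. Values of a gene that this rule names are not reported here. Members and lists were chosen with earlier results of these data known. Lengths and GC content came from GENCODE M21 on GRCm38, matched by symbol. Replicate numbers were not treated as pairs: residuals of libraries of equal number correlated at -0.148 to 0.0923 over 12 pairs. These correlations cannot show whether libraries of equal number were handled together. The code was tested on simulated data.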

Additional observations from a re-analysis of the deposited data

Results flagged for a closer look

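Of 129 groups of 4 libraries examined (43 named genes in 3 groups), 15 held a library far from the other 3. Chance alone flags about 1 in 20 groups. In MCAO these were Mrps16 at 80.4 FPKM in replicate 2 against 34.4 to 39.5 in the others, Chka at 40.6 in replicate 1 against 31.6 to 32.3, Ndufs8 at 118 in replicate 1 against 217 to 234, Pfdn5 at 202 in replicate 3 against 266 to 273, and Tnfaip3 at 55.9 in replicate 3 against 35.1 to 37.6. The same held at low levels for Ly6c1 at 3.05 in replicate 2 against 0.24 to 0.33, Lat at 0.20 in replicate 2 against 0, and Cd22 at 9.87 in replicate 4 against 2.49 to 2.93.

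In MCAO+Ctrl-exos, Hexa was at 465 in replicate 1 against 685 to 706, and Apoc1 at 256.9 in replicate 2 against 189 to 198. In MCAO+AS-exos all such values came from replicate 4: Srrm2 at 82.2 against 14.9 to 19.7, Tspan4 at 77.6 against 174 to 201, Tnfaip3 at 37.0 against 19.0 to 19.1, Isg15 at 12.2 against 4.91 to 5.38, and Gp9 at 0.61 against 0 to 0.07.

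The effect against MCAO differed between exosome types, by the test of that difference, for Uqcr11 (-1.15 on the log2 scale, MCAO+AS-exos minus MCAO+Ctrl-exos, adjusted p = 0.0236) and for Rpgrip1 (3.49, adjusted p = 8.14e-05).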

How the results depend on the processing

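Each of the 6 called genes kept its direction under the 25 alternatives run for it, and its call in fewer: Rpgrip1 lost it in 1, Gstp2 in 2, Ccdc58 in 7, Chka in 11, Mrps16 in 12 and Tmem176b in 16, with adjusted p-values of up to 0.183, 0.0837, 0.0747, 0.128, 0.128 and 0.128. Rpgrip1 lost it with the 8 exosome libraries as 1 group. For any exosomes against MCAO, 11 genes were called in a fit of the 12 libraries without Sham, 3 with equal totals, 1508 with library quality weights and 1305 without MCAO+AS-exos replicate 4 and MCAO+Ctrl-exos replicate 1 together. Between exosome types, against 31, these settings gave 54, 39, 3266 and 1088, quantile normalization 77, a minimum of 5 FPKM 93, no trend 16, and removal of length and GC trends 48. For MCAO+Ctrl-exos against MCAO, against 8, the fit without Sham gave 4, equal totals 5, no filter 3, no trend 2, quality weights 59, the length trend removed 4, length and GC trends removed 5, and the pair left out 168. For MCAO+AS-exos against MCAO, against 666, quantile normalization gave 279, quality weights 3955 and the pair left out 2155. Genes without overlap became 1025 without the pair. Leaving out 1 library at a time gave 1 to 880 genes for any exosomes, 1 to 1297 between types, 2 to 89 for MCAO+Ctrl-exos, 0 to 2024 for MCAO+AS-exos and 239 to 611 without overlap. The 0 came without MCAO+AS-exos replicate 2 and again without replicate 3, and the highest counts without MCAO+AS-exos replicate 4 or, for MCAO+Ctrl-exos and the overlap, without MCAO+Ctrl-exos replicate 1. With a replicate block, 2 genes were called for any exosomes, 68 between types and 5 for MCAO+Ctrl-exos. Whether the replicate numbers pair libraries is not known. Mag, an oligodendrocyte gene that was not called, ranged from -0.83 to 0.00300 when 1 library was left out, with the sign changed without MCAO replicate 1. The causes of these shifts were not tested. Depth is unknown, so counting error, which weighs most on genes of a few FPKM, was not computed.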
